A study of Homo sapiens with 12 samples.

Results

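RCC4 cells that had both WWTR1 silenced and erastin added were compared with RCC4 cells that had received a control siRNA and vehicle, 3 arrays against 3 of the 12 in the series, over 11963 genes. RCC4, a long-used human cell line, comes from a clear cell carcinoma of the kidney and has no functional VHL, the protein that marks hypoxia-inducible factors for destruction. In the siTAZ_erastin group the cells carried siRNA against WWTR1, the gene of the coactivator TAZ, for 2 days and were then given 1 µM erastin for 7 h. The siTAZ_DMSO cells had the same siRNA with the DMSO vehicle, the siNT_erastin cells a non-targeting siRNA with erastin, and the siNT_DMSO cells the non-targeting siRNA with DMSO. All 4 groups shared the line, its culture medium and the transfection, and the submitters call the 3 arrays of a group biological triplicates. The siNT_DMSO group is thus the baseline of the comparison, although it too was transfected and given solvent.

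TAZ is a transcriptional coactivator that the Hippo kinases keep out of the nucleus and that acts through TEAD DNA-binding factors. Erastin blocks system xc-, the antiporter that imports cystine in exchange for glutamate. Without cystine a cell runs short of cysteine and glutathione, and may die by ferroptosis, in which iron drives the peroxidation of membrane lipids. Lack of amino acids also activates the kinase GCN2, after which the transcription factor ATF4 induces genes for amino acid transport, amino acid synthesis and tRNA charging. A change of WWTR1 and a change of cystine supply might act on some of the same genes. The question here is which genes end at the control level when both are applied, and which changes add up.

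The measurement was a log2 signal per probe set, and the brightest probe set over all 12 arrays stood for its gene. Differences are siTAZ_erastin minus siNT_DMSO on the log2 scale, ± the standard error of a limma fit over all 12 arrays, and are called the combined difference. The mean silencing effect is the average of siTAZ minus siNT in DMSO and in erastin. The mean erastin effect is the average of erastin minus DMSO in siTAZ and in siNT cells. These mean effects add up exactly to the combined difference, and a gene was called where its p, adjusted after Benjamini and Hochberg across the 11963 genes, was under 0.05. "Rose", "fell" and "called" are used only for genes past that threshold. Array medians lay between 6.48 and 6.54, and siTAZ_erastin arrays correlated with siNT_DMSO arrays at 0.9923 to 0.9931, against 0.9962 to 0.9987 between arrays of one group. Leukocyte markers averaged a log2 signal of 4.45 on siTAZ_erastin arrays and 4.44 on siNT_DMSO arrays, with 0 of 10 called, whereas 9 renal tubule and carcinoma markers averaged 10.6 and 10.5. A gene is called dim where its highest group mean was under 5.53, the 75th percentile of 23 leukocyte, erythroid and neuron markers. The 3′ minus 5′ signal of the actin control probe sets, a sign of RNA integrity, was 3.25 ± 0.33 on siTAZ_erastin arrays and 2.68 ± 0.28 on siNT_DMSO arrays (SD, n = 3 each). On the singly treated groups it was 2.65 ± 0.04 on siTAZ_DMSO and 2.26 ± 0.69 on siNT_erastin arrays, so it was higher with erastin in siTAZ cells and lower with erastin in siNT cells, groups that the mean effects and the interaction use. The GAPDH difference was 0.20 ± 0.06 on siTAZ_erastin and 0.18 ± 0.07 on siNT_DMSO arrays. With the actin value as a covariate, 65 genes in place of 54 met the control-level rule given further on, 49 of them shared. Bulk RNA cannot tell fewer cells of a kind from less RNA per cell.

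WWTR1 itself had log2 signals of 9.09, 9.10 and 9.25 on siTAZ_erastin arrays and 12.24, 12.29 and 12.33 on siNT_DMSO arrays. The combined difference was −3.14 ± 0.07, or 8.81-fold lower, with no overlap of the groups, and its other probe sets gave −3.28 and −3.70. Its close relative YAP1 had 8.53 ± 0.11 in siTAZ_erastin cells and 8.54 ± 0.06 in siNT_DMSO cells (SD, n = 3 each), a difference whose 95% interval ran over −0.15 to 0.15.

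Taken alone, the combined difference was called upward for 1885 genes, 15.8% of those tested, and downward for 1726, 14.4%. Of these, 97 rose and 62 fell at least 2-fold. In 22.8% of all genes the 3 siTAZ_erastin arrays lay wholly above the siNT_DMSO arrays, and in 20.7% wholly below. The median over all genes was 0.01, which the normalization of the arrays to one distribution largely fixes. The mean silencing effect was called upward for 2385 genes (19.9%) and downward for 2145 (17.9%). The mean erastin effect was far narrower, with 129 genes called upward (1.08%) and 98 downward (0.819%).

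The chemokine gene CXCL14 rose most, with log2 signals of 9.41, 9.51 and 9.62 on siTAZ_erastin arrays against 6.64, 6.87 and 6.89 on siNT_DMSO arrays. That is 2.71 ± 0.10, or 6.55-fold higher (adjusted p = 8.37e-09), of which 2.55 was the mean silencing effect and 0.16 the mean erastin effect. TECPR2, a protein linked to autophagy, rose by 1.95 ± 0.11, but its other probe set gave 0.16. The zinc-finger repressor gene ZBTB20 rose by 1.87 ± 0.11, with 0.24 on a dim probe set. Further rises were SH3YL1 (1.74 ± 0.13) and the receptor tyrosine kinase gene FGFR3 (1.64 ± 0.10, with −0.06 on a dim probe set). FMR1, an RNA-binding protein of neuronal translation, rose by 1.60 ± 0.10, with 0.88 on its other probe set. None of these 6 genes had a mean erastin effect past the threshold.

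Among the falls, the membrane protein gene EMP1 had 5.91, 5.95 and 6.30 on siTAZ_erastin arrays against 7.88, 8.21 and 8.25 on siNT_DMSO arrays. Its combined difference of −2.06 ± 0.13, or 4.16-fold lower, was the mean silencing effect of −2.04 and a mean erastin effect of −0.02 that did not pass the test, and a second probe set gave −1.63. TNFRSF11B, the decoy receptor osteoprotegerin, fell by 2.08 ± 0.11 to a log2 signal of 4.27, in the range of absent markers, so the size is a lower limit. ADM, the vasodilator adrenomedullin, fell by 1.73 ± 0.09. ANGPTL4, an inhibitor of lipoprotein lipase, fell by 1.67 ± 0.11, and F3, the tissue factor that starts clotting, by 1.66 ± 0.07. AZIN1, which protects ornithine decarboxylase from degradation, fell by 1.70 ± 0.05. It is the only gene named in this paragraph with both mean effects called, −1.48 for silencing and −0.22 for erastin, and its other probe sets gave −0.63 and −0.39.

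Both mean effects were called in 169 genes. In 89 of them, 0.744% of all genes, the effects had opposite signs, and in 80 they had the same sign. Of the 89 opposed genes, 62 were lowered by silencing and raised by erastin, and 27 the other way round. A gene was said to end at the control level where the whole 95% interval of its combined difference lay within 1.3-fold of siNT_DMSO, that is within 0.38 on the log2 scale. This held for 54 genes, 0.451% of all genes and 54 of the 89 opposed, and none of the 54 was dim. Of these, 37 were lowered by silencing and raised by erastin, and 17 the other way round. In 8 of the 54 the combined difference was small and yet called, so these ended near the control and not at it. The closest to the limit from inside was TNFSF10, with an interval of 0.05 to 0.32, and SOX9, at 0.07 to 0.39, lay just outside. Over the 54 genes the mean effects had a median size of 0.25 for silencing and 0.25 for erastin, under the limit of 0.38. With effects that small, lying within 1.3-fold does not by itself show that they cancelled. The count of 54 rests on small erastin effects and moved with single arrays. It was 33 without siNT_DMSO replicate 1, 33 without siTAZ_DMSO replicate 2 and 34 without siTAZ_DMSO replicate 3. With single effects against siNT_DMSO in place of mean effects, 17 genes met the rule.

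**Figure D1:**
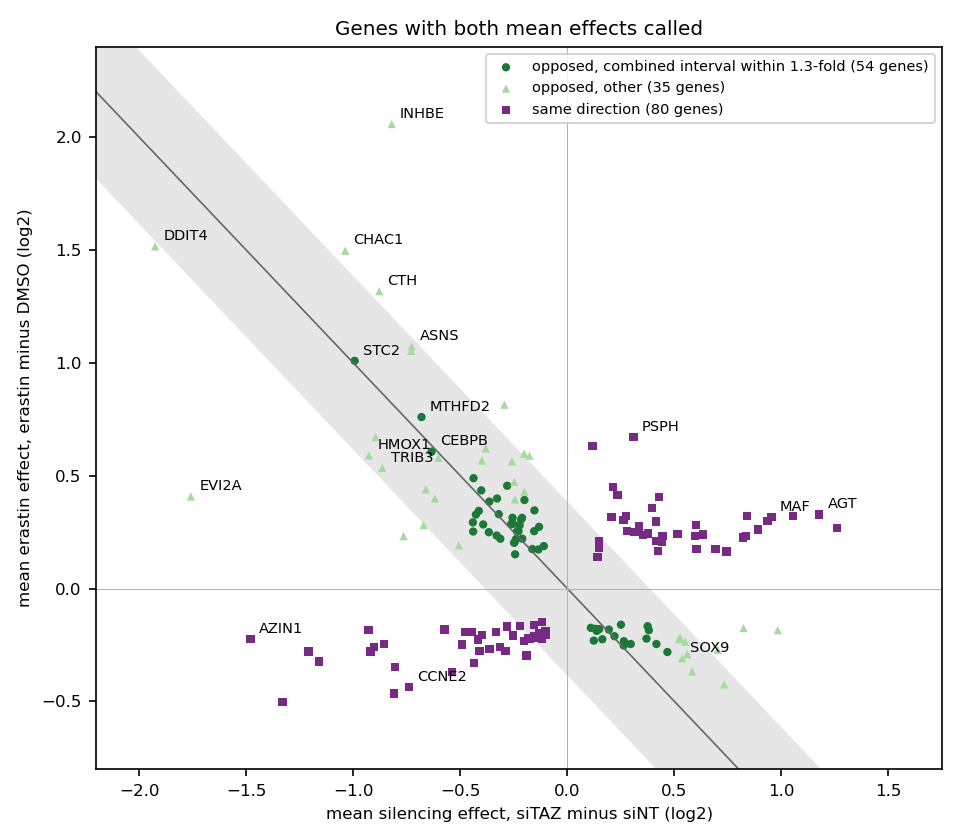
Mean silencing effect (x, siTAZ minus siNT, log2) against mean erastin effect (y, erastin minus DMSO, log2) for the 169 genes with both effects called, each point a gene. The diagonal marks a combined difference of 0 and the grey band a point estimate within 1.3-fold, in which the 54 genes at the control level (dark circles) lie; DDIT4, CHAC1 and INHBE (triangles) lie at or beyond its edges, and the 80 same-direction genes (squares) fill the other quadrants.

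STC2, a secreted glycoprotein induced by stress, had the largest mean effects among the genes at the control level. Its log2 signals were 10.47, 10.49 and 10.60 on siTAZ_erastin arrays, 9.19, 9.26 and 9.35 on siTAZ_DMSO arrays, 11.20, 11.26 and 11.36 on siNT_erastin arrays and 10.47, 10.51 and 10.53 on siNT_DMSO arrays. The doubly treated arrays overlapped with the control, while the singly treated arrays lay below and above it without overlap. The mean silencing effect was −0.99 ± 0.04 (adjusted p = 5.98e-09), the mean erastin effect 1.01 ± 0.04 (adjusted p = 7.43e-08), and the combined difference 0.02 ± 0.06, with a 95% interval of −0.12 to 0.15. Its other probe set gave −0.87, 0.74 and −0.13. Because mean effects add up to the combined difference, a value near 0 makes them nearly equal and opposite. The single effects of STC2 against siNT_DMSO summed to −0.47 and so did not cancel by themselves. The sums were also below 0 for MTHFD2 (−0.36) and CARS1 (−0.33), taken up below.

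MTHFD2, a mitochondrial enzyme of the folate cycle, had 11.75, 11.79 and 11.84 on siTAZ_erastin arrays and 11.61, 11.76 and 11.78 on siNT_DMSO arrays. The groups overlapped, although the mean effects were −0.68 ± 0.04 for silencing and 0.76 ± 0.04 for erastin. CEBPB, a transcription factor that pairs with ATF4, had 10.66, 10.68 and 10.74 on siTAZ_erastin arrays and 10.68, 10.74 and 10.74 on siNT_DMSO arrays. Its mean effects were −0.63 ± 0.04 for silencing and 0.61 ± 0.04 for erastin. PMAIP1, the pro-apoptotic BH3-only protein NOXA, had 11.18, 11.30 and 11.36 on siTAZ_erastin arrays and 11.20, 11.23 and 11.26 on siNT_DMSO arrays. Its mean effects were −0.44 ± 0.07 and 0.49 ± 0.07, and its other probe set gave −0.42 and 0.45. In each of these genes the 3 doubly treated arrays lay among or beside the control arrays, within 0.10 of log2 signal in the means.

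**Figure D2:**
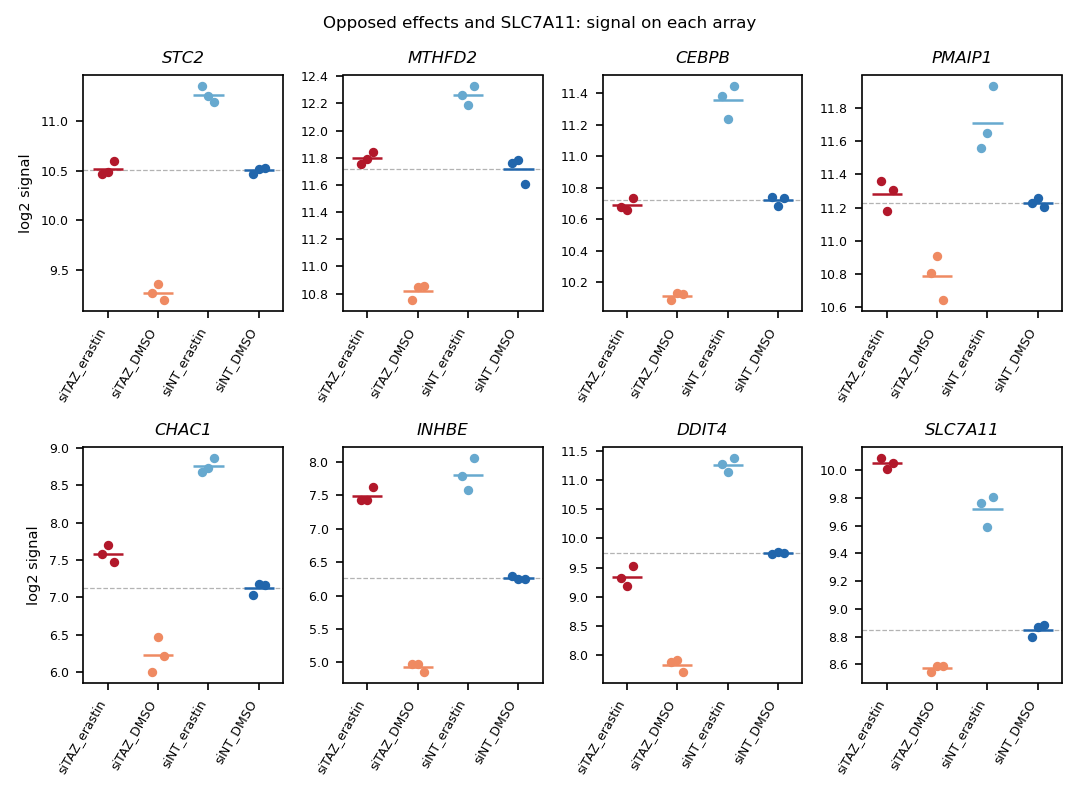
Log2 signal on each array (points) and group means (bars) for 7 genes with opposed effects and for SLC7A11, with siTAZ_erastin at the left, siNT_DMSO at the right and a dashed line at the siNT_DMSO mean. STC2, MTHFD2, CEBPB and PMAIP1 return to the dashed line, CHAC1 and INHBE stay above it, DDIT4 stays below it, and SLC7A11 is highest in siTAZ_erastin cells.

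Genes that load amino acids onto tRNAs were among the opposed. Of 16 measured cytoplasmic aminoacyl-tRNA synthetase genes, 15 fell with silencing and 0 rose, while 8 rose with erastin and 0 fell. Over all genes, 17.9% fell and 19.9% rose with silencing, and 1.08% rose and 0.819% fell with erastin. All 8 synthetase genes that responded to erastin were opposed, and all 8 were within 1.3-fold of the control. Since 15 of the 16 fell with silencing, a rise with erastin was nearly bound to make a synthetase gene opposed. In EPRS1, AARS1, SARS1 and TARS1 both mean effects were themselves smaller than the 1.3-fold limit. Lying within it therefore does not by itself show that they cancelled. In CARS1 both mean effects were slightly beyond the limit, and in WARS1, YARS1 and GARS1 the larger of them was. CARS1, which charges cysteine, had 12.07, 12.10 and 12.11 on siTAZ_erastin arrays against 12.03, 12.04 and 12.11 on siNT_DMSO arrays, with mean effects of −0.40 ± 0.03 and 0.44 ± 0.03. WARS1, for tryptophan, had −0.36 and 0.39 with a combined difference of 0.02 ± 0.05 (−0.19 on its other probe set), and SARS1, for serine, had −0.32 and 0.33 with 0.01 ± 0.05. YARS1, TARS1, EPRS1, AARS1 and GARS1, for tyrosine, threonine, glutamate with proline, alanine and glycine, had combined differences of −0.11, −0.10, −0.02, 0.06 and 0.19. Of the 8, GARS1 had a combined difference past the threshold (adjusted p = 0.0112), and EPRS1 lost its erastin call without siNT_DMSO replicate 1 or siTAZ_DMSO replicate 2 or 3. Of the 8 synthetases without an erastin call, 5 were lower in doubly treated cells than in the control, for example VARS1 for valine at −0.72 ± 0.07 (−0.23 on its other probe set), LARS1 for leucine at −0.52 ± 0.06 and FARSA for phenylalanine at −0.35 ± 0.06. Over the list, 1 member was higher (6.25%) and 5 were lower (31.2%) than in the control, against 15.8% and 14.4% of all genes. The list median was −0.09 against 0.01 over all genes.

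Genes attributed to ATF4 were a part of the opposed set. Of 51 measured members of a list of amino acid and stress genes, 34 fell and 5 rose with silencing, and 36 rose and 1 fell with erastin. Over all genes, 17.9% fell and 19.9% rose with silencing, and 1.08% rose and 0.819% fell with erastin. In all, 29 list members were opposed (56.9%, against 0.744% of all genes), of which 16 met the control-level rule. Among the members that met it, ATF4 and CEBPG had a called combined difference and so ended near the control and not at it. This list, like the others here, was chosen with earlier results of these data known, so the contrast with all genes is a description. Together the ATF4 and synthetase lists held 60 measured genes, 7 of them in both. Of the 62 genes lowered by silencing and raised by erastin, 31 were in at least 1 of these lists. Of all 89 opposed genes 57 were in neither, and of the 54 at the control level 35 were in neither. In siTAZ_erastin cells 19 ATF4 list members were higher than in the control (37.3%) and 6 lower (11.8%), with a median of 0.09. Over all genes the shares were 15.8% higher and 14.4% lower. ATF4 itself is regulated in large part by translation, which arrays do not measure. Its transcript was 12.69 ± 0.08 in siTAZ_erastin cells and 12.50 ± 0.03 in siNT_DMSO cells (SD, n = 3 each), a combined difference of 0.19 ± 0.05 made up of −0.15 and 0.35, which was not called without siNT_DMSO replicate 2 or siTAZ_erastin replicate 1 or 3 (0.17 to 0.24 over the arrays left out in turn).

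Amino acid transporters and enzymes were among the ATF4 list genes at the control level. The glutamine transporter gene SLC1A5 had a mean silencing effect of −0.41 and a mean erastin effect of 0.34, with a combined difference of −0.07 ± 0.08. SLC7A5, the LAT1 transporter of large neutral amino acids, had −0.43, 0.33 and −0.10 ± 0.05. The cationic amino acid transporter gene SLC7A1 had −0.25, 0.20 and −0.05 ± 0.06, with an erastin call that was lost without 6 of the 12 arrays in turn. Outside that list, GOT1, an aspartate aminotransferase, had −0.44, 0.29 and −0.15 ± 0.06, with its 3 siTAZ_erastin arrays below the control arrays by a margin that did not pass the test (adjusted p = 0.0828). VLDLR, a lipoprotein receptor on the ATF4 list, had −0.33, 0.40 and 0.07 ± 0.07, and CEBPG, a partner of ATF4, had −0.28, 0.46 and 0.17 ± 0.06, the last called (adjusted p = 0.0309) but lost without 4 of the arrays in turn. IFRD1, a stress-induced regulator of transcription, had −0.26, 0.29 and 0.02 ± 0.05, with −0.22 for the last on its other probe set.

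The opposed set was also searched for the composite C/EBP-ATF element that ATF4 and its partners bind, spelled TGATGNAA, on both strands (reverse complement TTNCATCA). The windows were RefSeq promoters of GRCh38.p14, 250 bases before to 50 after a gene's start. Of the 62 genes lowered by silencing and raised by erastin, 53 had a promoter in the table and 10 of these held the element, 18.9%. For the 27 genes of the other direction it was 0 of 21, for the 54 at the control level 7 of 49 (14.3%), for the 80 same-direction genes 6 of 58 (10.3%), and for all measured genes 215 of 9562, 2.25%. The element was in 10 of 43 ATF4 list promoters (23.3%) and in 5 of 13 synthetase promoters (38.5%), so these counts overlap with the lists. The promoters of 4 opposed genes named here are shown because their matches lie well before the start. Each line is 100 bases on the gene's strand, with the element in capitals. CHAC1 is at chr15:40953221-40953320 on the + strand, with the match 209 bases before the start. ASNS is at chr7:97872423-97872522 on the − strand, 68 bases before. GOT1 is at chr10:99430769-99430868 on the − strand, 198 bases before. AARS1 is at chr16:70289640-70289739 on the − strand, 187 bases before.
CHAC1: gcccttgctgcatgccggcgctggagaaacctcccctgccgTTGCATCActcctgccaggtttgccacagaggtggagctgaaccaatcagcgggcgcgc
ASNS: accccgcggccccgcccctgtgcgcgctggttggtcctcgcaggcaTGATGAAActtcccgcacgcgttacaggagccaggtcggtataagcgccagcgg
GOT1: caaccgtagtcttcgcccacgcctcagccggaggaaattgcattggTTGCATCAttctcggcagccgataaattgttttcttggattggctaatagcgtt
AARS1: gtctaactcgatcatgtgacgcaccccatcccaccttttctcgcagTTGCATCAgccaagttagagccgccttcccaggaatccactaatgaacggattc
In CHAC1, GOT1 and AARS1 the capitals read as the reverse complement, so the element runs on the other strand, and in ASNS it runs with the gene. A match shows letters only, and binding was not measured.

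Effects of opposite sign also left genes off the control level. In 33 opposed genes the combined difference was called, 25 above and 8 below the control. Leaving out the 8 that lay within 1.3-fold, 18 ended above and 7 below. Of the 18 above, 10 had the larger effect from erastin and 8 from silencing, and in all 7 below the silencing effect was the larger. A further 10 opposed genes were neither called nor within 1.3-fold, so their end point was not resolved.

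CHAC1, which degrades glutathione, had 7.48, 7.57 and 7.70 on siTAZ_erastin arrays, 5.99, 6.21 and 6.47 on siTAZ_DMSO arrays, 8.68, 8.73 and 8.86 on siNT_erastin arrays and 7.03, 7.16 and 7.18 on siNT_DMSO arrays. The 4 groups did not overlap, and doubly treated cells stood between control and erastin-treated cells. Its mean effects of −1.04 ± 0.07 and 1.497 ± 0.07 left a combined difference of 0.46 ± 0.11, or 1.37-fold higher (adjusted p = 0.00532). CTH, which cleaves cystathionine to give cysteine, had 8.20, 8.28 and 8.33 on siTAZ_erastin arrays against 7.73, 7.88 and 7.89 on siNT_DMSO arrays. That is 0.44 ± 0.10 from −0.88 and 1.32, with 0.17 on its other probe set. ASNS, asparagine synthetase, had 10.69, 10.75 and 10.80 against 10.36, 10.42 and 10.42 on the same groups of arrays, 0.35 ± 0.05 from −0.73 and 1.07.

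INHBE, an inhibin beta subunit of liver, lay furthest above. It had 7.43, 7.43 and 7.63 on siTAZ_erastin arrays, 4.85, 4.97 and 4.97 on siTAZ_DMSO arrays, 7.58, 7.79 and 8.06 on siNT_erastin arrays and 6.24, 6.25 and 6.29 on siNT_DMSO arrays. The siTAZ_DMSO signal was in the dim range, and the erastin-treated groups lay close together whether or not WWTR1 was silenced. Its combined difference was 1.24 ± 0.10, or 2.36-fold higher (adjusted p = 2.36e-06). PCK2, the mitochondrial phosphoenolpyruvate carboxykinase, rose by 0.32 ± 0.09, a call lost without siNT_DMSO replicate 1 or 3 or siTAZ_erastin replicate 3 (0.27 to 0.36). Others above were NUPR1, a stress-induced chromatin protein, at 0.52 ± 0.10, and the neutral amino acid transporter gene SLC1A4 at 0.40 ± 0.06 (0.05 to 0.47 on its other probe sets). The unfolded protein response factor XBP1 was at 0.23 ± 0.08 and the cytokine gene GDF15 at 0.30 ± 0.11. The calls of these last 2 were lost when any of 8 of the 12 arrays was left out.

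In the other direction, SOX9, a transcription factor of the developing tubule, was raised by silencing (0.54 ± 0.05), lowered by erastin (−0.31 ± 0.05) and ended 0.23 ± 0.07 above the control, a call lost without 5 of the 12 arrays in turn (0.15 to 0.28). TNFSF10, the death ligand TRAIL, had 0.47, −0.28 and 0.19 ± 0.06, with 0.28 and 0.35 for the last on its other probe sets, and its combined call was lost without 9 of the 12 arrays in turn. The co-chaperone genes DNAJB1 and BAG3, which serve HSP70, had silencing effects of 0.53 and 0.37 and erastin effects of −0.22 and −0.17. They ended 0.31 ± 0.05 and 0.21 ± 0.05 above the control, BAG3 within 1.3-fold of it. The other DNAJB1 probe set gave 0.11, and the erastin call of BAG3 was lost without 7 of the 12 arrays in turn. CCL2, a monocyte chemokine, had mean effects of 0.73 ± 0.09 and −0.42 ± 0.09, with a combined difference of 0.31 ± 0.12 that did not pass the test (adjusted p = 0.0757) except without siNT_DMSO replicate 3, and an erastin call lost without 4 of the arrays in turn.

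DDIT4, which restrains mTORC1 in stress and hypoxia, had the largest opposed effects of the genes that ended below. Its signals were 9.19, 9.32 and 9.52 on siTAZ_erastin arrays, 7.70, 7.87 and 7.91 on siTAZ_DMSO arrays, 11.14, 11.29 and 11.38 on siNT_erastin arrays and 9.74, 9.75 and 9.77 on siNT_DMSO arrays. A mean silencing effect of −1.93 ± 0.06 and a mean erastin effect of 1.52 ± 0.06 left −0.41 ± 0.09, or 1.33-fold lower (adjusted p = 0.00383). The sum of the single effects against siNT_DMSO was also −0.41. TRIB3, a pseudokinase induced by ATF4, had 10.83, 10.84 and 10.84 on siTAZ_erastin arrays against 11.14, 11.17 and 11.18 on siNT_DMSO arrays, −0.33 ± 0.05 from −0.86 and 0.53. HMOX1, the haem oxygenase, had 9.74, 9.84 and 9.85 against 10.10, 10.16 and 10.18 on the same groups of arrays, −0.34 ± 0.06 from −0.93 and 0.59. SHMT2, the mitochondrial serine hydroxymethyltransferase, fell by 0.39 ± 0.06, and the stress gene GADD45B by 0.53 ± 0.06 (−0.51 to −0.19 on its other probe sets). EVI2A, a membrane protein gene, ended furthest below, at −1.35 ± 0.09 or 2.55-fold lower, since its mean effects were −1.76 and 0.41. Its siTAZ_DMSO signal of 5.45 was in the dim range, so these mean effects are lower limits.

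The same sign was seen for both mean effects in 40 genes that rose (0.334%) and 40 that fell (0.334%). Silencing had the larger share in 31 of the 40 rises and 28 of the 40 falls. Mean silencing effects ran over 0.12 to 1.26 in the rises and −1.48 to −0.10 in the falls, and mean erastin effects over 0.14 to 0.67 and −0.50 to −0.15. The combined differences had medians of 0.73 and −0.63. The counts fell to 16 rises without siNT_DMSO replicate 1 and to 16 falls without siNT_DMSO replicate 2. In all, 9 of the 12 arrays moved the count of rises by more than 1.5-fold when left out, and 7 the count of falls.

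TMEM268, a transmembrane protein gene, had nearly equal parts. Its signals were 7.19, 7.26 and 7.31 on siTAZ_erastin arrays, 6.77, 6.81 and 6.84 on siTAZ_DMSO arrays, 6.60, 6.75 and 7.00 on siNT_erastin arrays and 6.38, 6.42 and 6.45 on siNT_DMSO arrays. Both singly treated groups overlapped with each other and lay above the control, and the doubly treated arrays lay above all of them. The mean effects of 0.43 ± 0.06 and 0.41 ± 0.06 gave 0.84 ± 0.08, or 1.78-fold higher (adjusted p = 1.13e-05). PSPH, the phosphatase that completes serine synthesis, had 8.997, 9.13 and 9.19 on siTAZ_erastin arrays against 8.04, 8.14 and 8.20 on siNT_DMSO arrays. It rose by 0.98 ± 0.10, 1.97-fold, with 0.31 from silencing and 0.67 from erastin, but a second probe set gave 0.40 with 0.05 from silencing.

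Most other rises leaned on silencing. AGT, angiotensinogen, had 8.32, 8.33 and 8.35 on siTAZ_erastin arrays, 8.07, 8.16 and 8.30 on siTAZ_DMSO arrays, 7.31, 7.33 and 7.35 on siNT_erastin arrays and 6.67, 6.79 and 7.02 on siNT_DMSO arrays. It rose by 1.51 ± 0.08, or 2.84-fold, with mean effects of 1.18 and 0.33. The transcription factor gene MAF rose by 1.27 ± 0.09 from 0.95 and 0.32, with 0.62 on a second probe set and 0.01 on a dim one. EGR1, an immediate early transcription factor, rose by 0.88 ± 0.06 from 0.60 and 0.28. The monocarboxylate transporter family gene SLC16A4 rose by 1.23 ± 0.09, the axonemal dynein light chain gene DNALI1 by 1.16 ± 0.09 (with control arrays in the dim range, hence a lower limit) and PLAAT4, a phospholipase and acyltransferase, by 0.71 ± 0.08. The erastin part lost its call without 8 of the 12 arrays in turn in MAF, 7 in SLC16A4 and DNALI1, and 5 in PLAAT4. ATF3, a stress transcription factor, rose by 0.75 ± 0.06 almost wholly through erastin (0.63 ± 0.04), and its silencing part of 0.12 ± 0.04 lost its call without 7 of the arrays in turn.

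**Figure D3:**
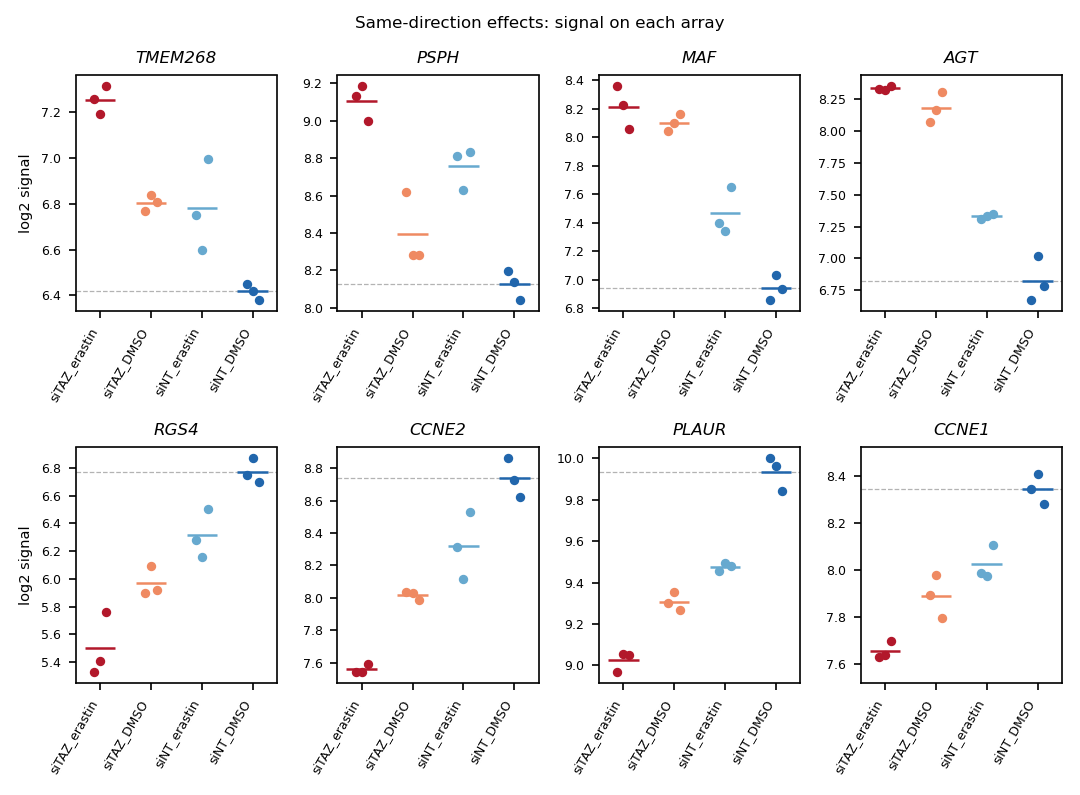
Log2 signal on each array (points) and group means (bars) for 4 genes whose mean effects were both upward (top) and 4 whose mean effects were both downward (bottom), with siTAZ_erastin at the left and siNT_DMSO at the right. In all 8 panels the siTAZ_erastin mean is the farthest from the dashed siNT_DMSO mean, though in MAF and AGT it is close to siTAZ_DMSO.

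The falls included cyclin E genes, whose proteins drive entry into S phase. CCNE2 had 7.54, 7.55 and 7.59 on siTAZ_erastin arrays, 7.99, 8.03 and 8.04 on siTAZ_DMSO arrays, 8.12, 8.31 and 8.53 on siNT_erastin arrays and 8.62, 8.73 and 8.86 on siNT_DMSO arrays. The 4 groups did not overlap, and each singly treated group lay between the doubly treated arrays and the control. It fell by 1.18 ± 0.09, or 2.26-fold (adjusted p = 1.6e-06), with mean effects of −0.74 and −0.44, and a weaker probe set gave −0.67 from −0.35 and −0.33. CCNE1 had 7.63, 7.64 and 7.70 on siTAZ_erastin arrays against 8.28, 8.34 and 8.41 on siNT_DMSO arrays, and fell by 0.69 ± 0.06 from −0.41 and −0.28.

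RGS4, which shortens G protein signalling, had 5.33, 5.41 and 5.76 on siTAZ_erastin arrays against 6.70, 6.75 and 6.87 on siNT_DMSO arrays. It fell by 1.27 ± 0.12 from −0.81 and −0.46, with −0.80 and −0.82 on its other probe sets, which were dim. Its siTAZ_erastin mean of 5.50 was itself in the dim range, so the size is a lower limit. PLAUR, the urokinase receptor, had 8.97, 9.05 and 9.05 against 9.84, 9.96 and 10.00, and fell by 0.91 ± 0.05 from −0.54 and −0.37; its other probe sets gave −0.96 and −0.15. BCL2A1, an anti-apoptotic BCL2 relative, fell by 1.83 ± 0.11 to a signal of 4.06, in the dim range, so the size is a lower limit. The chemokine gene CXCL1 fell by 1.16 ± 0.07 from −0.90 and −0.26, and NFKBIE, an inhibitor of NF-kB, by 0.63 ± 0.06 from −0.36 and −0.27. The formin gene FHOD1 fell by 0.76 ± 0.06, the calcium-binding protein gene EFHD2 fell by 1.199 ± 0.07 and the organic anion transporter gene SLCO4A1 fell by 1.49 ± 0.08. The erastin part lost its call without 6 of the 12 arrays in turn in CXCL1 and 5 in SLCO4A1. DNAJA1, an HSP70 co-chaperone, was called on its brightest probe set (−0.33 ± 0.06), but its other probe set gave 0.02, with the silencing part reversed at 0.17. Its erastin call was lost without 9 of the 12 arrays in turn and its silencing call without 4.

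Whether changes added up was read from the interaction, the combined difference minus the sum of the single effects against siNT_DMSO. On the log2 scale a value of 0 means that the fold changes multiply. The interaction was called for 0 of 11963 genes in limma (0%), with 764 at an unadjusted p under 0.05, and the smallest adjusted p was 0.0583. In 6944 genes its 95% interval lay within 1.3-fold, so additivity was shown to that precision there and left unresolved in the rest. Among the same-direction genes the interval lay within the limit for 20 of the 40 rises and 34 of the 40 falls. Examples among the falls were EFHD2, with −1.199 observed and −1.199 as the sum of single effects, CCNE2 with −1.18 and −1.14, and FHOD1 with −0.76 and −0.78. Among rises, CCDC28A had 0.61 observed and 0.62 as the sum, and PSPH had 0.98 and 0.90.

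Several rises came out under the sum without a call. MAF had 1.27 observed against a sum of 1.68, with an interaction of −0.41 and a 95% interval of −0.70 to −0.13 (adjusted p = 0.77). AGT had 1.51 against 1.85, EGR1 0.88 against 1.25, and AKR1C1, a ketosteroid reductase induced by NRF2, 0.83 against 1.12. The interaction had a median of −0.12 over the 40 rises and 0.05 over the 40 falls, values that share arrays with the effects that chose the genes and are given as a description.

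Some genes came out above the sum. INHBE had 1.24 observed against a sum of 0.22. Its fitted interaction of 1.01 rests on siTAZ_DMSO arrays with a mean of 4.93, in the dim range, so its size is a lower limit and its interval is not given. SLC7A11, the cystine transporter subunit that erastin blocks, had 10.01, 10.05 and 10.09 on siTAZ_erastin arrays, 8.54, 8.58 and 8.59 on siTAZ_DMSO arrays, 9.59, 9.76 and 9.81 on siNT_erastin arrays and 8.79, 8.87 and 8.88 on siNT_DMSO arrays. The doubly treated arrays were the highest of the 4 groups although silencing alone lowered the gene in DMSO by 0.28. It rose by 1.204 ± 0.06, or 2.30-fold (adjusted p = 7.72e-08), against a sum of 0.59, and its other probe sets gave 1.06 and, on a weak one, 0.27. ASNS had 0.35 against −0.18. These 3 genes shared the adjusted p of 0.0583 for the interaction and were called under several alternative settings, as was INHBE without siNT_erastin replicate 3. STC2 had 0.02 against −0.47, MTHFD2 0.08 against −0.36 and CARS1 0.03 against −0.33, so for these the single effects on untreated cells did not sum to 0 and the return to the control level came with a larger erastin response in silenced cells, by 0.48, 0.44 and 0.37, none of them called (adjusted p = 0.28, 0.40 and 0.29). All 3 were called with a trended robust variance. CEBPB, PMAIP1 and SARS1 had sums of 0.03, 0.04 and −0.01, near the observed −0.03, 0.05 and 0.01. Of the 54 genes at the control level, 41 had an interaction within 1.3-fold.

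**Figure D4:**
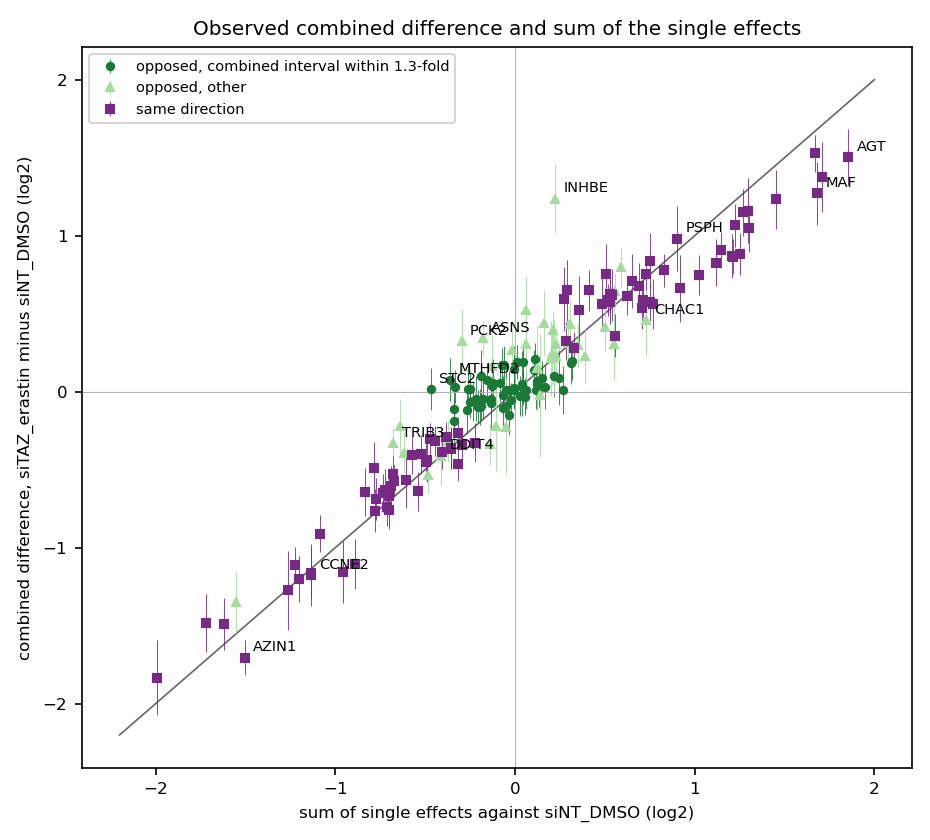
Observed combined difference (y, log2, with 95% intervals) against the sum of the single silencing and erastin effects on siNT_DMSO cells (x, log2) for the 169 genes with both mean effects called; both axes share the siNT_DMSO arrays. Points on the diagonal add up exactly, INHBE, ASNS, PCK2 and STC2 lie above it, and MAF and AGT lie below it.

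Genes of ferroptosis ended on either side of the control. Of 15 measured suppressors 5 were higher (33.3%) and 5 lower (33.3%) in siTAZ_erastin cells, against 15.8% and 14.4% of all genes. Their median was 0.09, and 0 were opposed, against 0.744% of all genes. Besides SLC7A11, its partner chain gene SLC3A2 rose by 0.26 ± 0.07, a call lost without siNT_DMSO replicate 3 or siTAZ_erastin replicate 1. GPX4, which reduces lipid peroxides, had 12.17 ± 0.05 in siTAZ_erastin cells and 11.77 ± 0.16 in siNT_DMSO cells (SD, n = 3 each), 0.40 ± 0.07 higher. The gene of NRF2, NFE2L2, rose by 0.43 ± 0.06. GCH1, which makes the antioxidant tetrahydrobiopterin, fell by 1.15 ± 0.13. Of 23 promoters of ferroptosis 4 were higher (17.4%, near the share of all genes) and 7 lower (30.4%), with a median of −0.01. ACSL4, which activates polyunsaturated fatty acids for membrane lipids, rose by 0.57 ± 0.15 and BACH1, a repressor of antioxidant genes, by 0.71 ± 0.14. The elongase gene ELOVL5 fell by 0.98 ± 0.05, though its other probe sets gave −0.02 and 0.05. TFRC, the transferrin receptor for iron uptake, stayed at 0.04 ± 0.05. The ACSL4 call was lost without siTAZ_erastin replicate 2.

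Many cell cycle genes were lower. Of 33 measured G2 and M phase genes 22 fell and 1 rose, with a median of −0.28, and of 32 S phase genes 21 fell and 0 rose, with a median of −0.24, against 14.4% of all genes falling. The mitotic kinesin gene KIF23 had 7.89 ± 0.09 in siTAZ_erastin cells and 8.88 ± 0.04 in siNT_DMSO cells (SD, n = 3 each), 1.98-fold lower, and KIF20A and the spindle checkpoint kinase gene TTK fell by 0.64 ± 0.08 and 0.55 ± 0.06. RRM2, a subunit of ribonucleotide reductase, fell by 0.82 ± 0.05 (−1.68 on its other probe set) and the uracil glycosylase gene UNG by 0.82 ± 0.07. The mean erastin effect was called in 0 of the G2 and M genes and, downward, in 3 of the S phase genes, with list medians of −0.05 and −0.10. The mean silencing effect was called downward in 20 and 17.

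**Figure D5:**
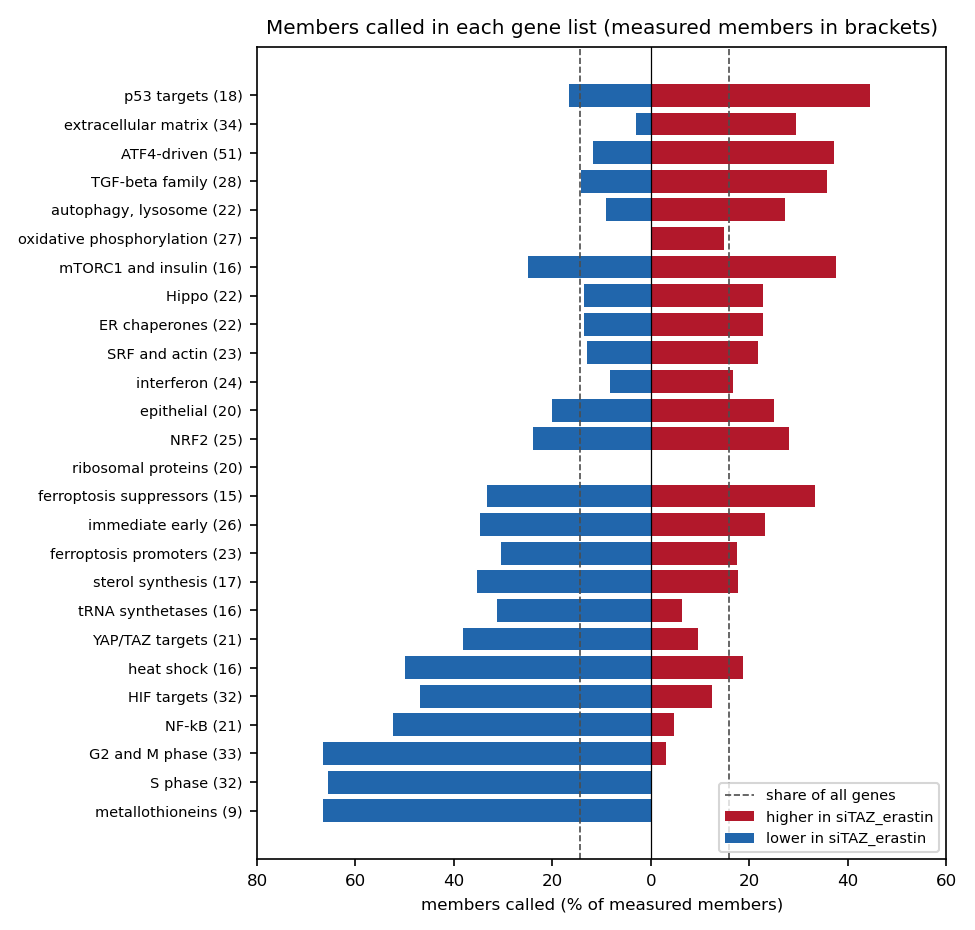
Share of measured members of each of 26 gene lists called higher (bars to the right) or lower (bars to the left) in siTAZ_erastin than in siNT_DMSO cells, in percent, with dashed lines at the shares over all genes (15.8% and 14.4%). The metallothionein, S phase, G2 and M phase and NF-kB lists reach furthest to the left, and the p53 target list furthest to the right.

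Genes of inflammation were measured through the NF-kB list. Of 21 NF-kB targets 11 fell (52.4%) and 1 rose (4.76%), against 14.4% and 15.8% of all genes, with a median of −0.21. The interleukin gene IL6 fell by 0.95 ± 0.06 and the neutrophil chemokine gene CXCL8 by 0.75 ± 0.07, beside CXCL1. Erastin lowered 5 of the 21 and raised 0 by mean effect, against 0.819% and 1.08% of all genes. For CXCL8 the observed −0.75 lay under a sum of −0.24, with an interaction of −0.52 that was not called (adjusted p = 0.28) except with a trended robust variance. A weaker CXCL8 probe set gave a combined difference of −1.21 and an interaction of −1.33. Targets of hypoxia-inducible factors, which are active in a line without VHL, fell in 15 of 32 (46.9%) and rose in 4 (12.5%). The share of rises was not far from that of all genes, and the list median was −0.13. Besides ADM and ANGPTL4, the glucose transporter gene SLC2A3 fell by 0.94 ± 0.07 (−0.02 and −0.61 on weaker probe sets), the mitophagy receptor gene BNIP3L by 0.71 ± 0.06 (−0.47 on its other probe set) and the angiogenic factor gene VEGFA by 0.44 ± 0.07. STC2, which is on this list as well, is the only opposed member. Of 9 metallothionein genes, which bind zinc and copper, 6 fell (66.7%) and 0 rose. MT1X fell by 0.58 ± 0.07 and MT2A by 0.47 ± 0.05, and the near-identical sequences of these genes can share signal.

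The list of YAP/TAZ targets gathers genes that other work has tied to these coactivators. Of 21 YAP/TAZ targets 8 fell (38.1%, against 14.4% of all genes) and 2 rose (9.52%, against 15.8%), with a median of −0.10. Besides F3, FJX1 fell by 0.69 ± 0.07 and CCN2, connective tissue growth factor, had 6.96 ± 0.21 in siTAZ_erastin cells and 7.38 ± 0.12 in siNT_DMSO cells (SD, n = 3 each), 0.41 ± 0.10 lower in log2 (−0.41). CCN1, a matrix protein of the same family, fell by 0.29 ± 0.06 (−0.48 on its other probe set). ANKRD1 was at −0.38 ± 0.11, a call lost without siNT_DMSO replicate 2 or siTAZ_erastin replicate 2. Of 22 Hippo pathway genes 5 rose (22.7%) and 3 fell (13.6%), not far from the shares of all genes, with TEAD1, through which TAZ reaches DNA, at 0.67 ± 0.10. The insulin receptor substrate gene IRS2 fell by 1.42 ± 0.09, while of 16 measured mTORC1 and insulin pathway genes 6 rose (37.5%) and 4 fell (25%).

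Rises outnumbered falls in the p53, matrix and TGF-beta lists. Of 18 p53 targets 8 rose (44.4%) and 3 fell (16.7%), with a median of 0.13, against 15.8% of all genes rising and 14.4% falling. The stress sensor gene SESN1 rose by 0.99 ± 0.06, the phosphatase gene PPM1D by 0.71 ± 0.09 and TP53I3 by 0.65 ± 0.07. MDM2, the p53 ubiquitin ligase, rose by 0.59 ± 0.11 on its brightest probe set, and 4 others gave 0.01 to 0.12. Of 34 extracellular matrix genes 10 rose (29.4%) and 1 fell (2.94%). Fibronectin, FN1, was at 0.91 ± 0.06 and fibrillin, FBN1, at 1.17 ± 0.10, a lower limit since its control arrays were dim. The other FBN1 probe set, a dim one, gave 0.15. Of 28 TGF-beta family genes 10 rose (35.7%) and 4 fell (14.3%, near the share of all genes). Among the rises were the inhibitor of differentiation gene ID3 at 1.14 ± 0.10 and the co-receptor gene TGFBR3 at 1.11 ± 0.10. Fibroblast markers averaged a log2 signal of 4.80 in siTAZ_erastin cells and 4.69 in siNT_DMSO cells, with 0 of 8 called.

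The remaining lists are to be read against 15.8% of all genes rising and 14.4% falling. Among 24 interferon genes 4 rose (16.7%) and 2 fell (8.33%). Of 16 heat shock genes 3 rose (18.8%) and 8 fell (50%), with a median of −0.15, for example HSPD1, a mitochondrial chaperonin, at −0.36 ± 0.04 (−0.62 on its other probe set) and the co-chaperone gene FKBP4 at −0.73 ± 0.06. Genes of ER chaperones rose in 5 of 22 (22.7%) and fell in 3 (13.6%); HERPUD1, of ER-associated degradation, rose by 0.44 ± 0.05 through erastin (0.47 ± 0.04), while HYOU1, a chaperone, fell by 0.52 ± 0.06 through silencing (−0.52). NRF2 targets rose in 7 of 25 (28.0%) and fell in 6 (24.0%), with AKR1C3, a relative of AKR1C1, at 1.06 ± 0.06 and UGDH, which makes UDP-glucuronate, at −1.10 ± 0.07, of which −0.25 was an erastin part whose call was lost without 9 of the 12 arrays in turn. Of 26 immediate early genes 6 rose (23.1%) and 9 fell (34.6%), of 23 actin and serum response factor genes 5 rose (21.7%) and 3 fell (13.0%), and of 20 epithelial genes 5 rose (25%) and 4 fell (20%). Autophagy and lysosome genes rose in 6 of 22 (27.3%) and fell in 2 (9.09%), with the ATG8 family gene GABARAPL1 at 0.93 ± 0.08. Sterol synthesis genes rose in 3 of 17 (17.6%) and fell in 6 (35.3%). Oxidative phosphorylation genes rose in 4 of 27 (14.8%, under the share of all genes) and fell in 0, and 20 ribosomal protein genes had 0 calls in either direction, with a median of 0.00.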

How the data were processed

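Total RNA of 12 cultures was measured on 12 Affymetrix arrays, 3 per group. The authors deposited log2 signals per probe set, made with RMA in Affymetrix Expression Console per the submitters' processing notes, and neither versions nor a genome build are given in the sources used here. These values are not taken relative to the control arrays, although the series' design text speaks of such a step. Of 22277 probe sets, 62 controls, 1043 with several genes and 2108 with none were left out. The brightest of the 19064 others stood for each of 11963 genes. limma 3.58.1 in R 4.3.3 fitted a mean per group (lmFit, eBayes, 8 residual and 3.90 prior degrees of freedom) with Benjamini-Hochberg adjustment over all genes. All adjusted p-values are limma's. The median standard error was 0.0789 for the combined difference and 0.112 for the interaction, and the number of arrays limits the precision. Comparisons with siNT_DMSO share its 3 arrays. The script was tested on simulated data. Members, margins, the rule for named genes (fixed genes, the largest changes per class, and a few per list) and the 32 gene lists were chosen with earlier results of these data known. Promoter sequences are from RefSeq. Alternatives were other normalizations, filters, probe set rules, variance models, margins, a replicate block, an actin covariate and each array left out in turn.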

Additional observations from a re-analysis of the deposited data

How the results depend on the processing

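The directions of called effects of the named genes held under all alternatives, apart from the mean silencing effects of DNAJA1 and JMJD6. With the mean of all probe sets these were 0.018 and −0.026, and the probe sets of both genes disagree. Changes of sign in effects that were not called were not counted. For example, the combined differences of STC2, WARS1 and IFRD1 were each 0.02, and −0.13, −0.19 and −0.22 on their other probe sets. The interaction was called for 3 genes (ASNS, INHBE and SLC7A11) with median centring, a second quantile normalization, array weights, or genes under the 25th percentile left out, and for 10 with a trended robust variance, these 3, CARS1, CXCL8, MTHFD2, STC2 and TRIB3 among them. That filter gave 61 same-direction falls. The trended robust variance gave 183 erastin falls, 84 genes at the control level (52 of the 54 among them), 57 away from it, 80 same-direction falls and 98 additive genes. Array weights gave 282 erastin rises and 397 falls, 142 genes at the control level (all 54 among them), 90 away, 90 same-direction rises, 160 falls and 191 additive genes. With single effects against siNT_DMSO in place of mean effects, 17 genes were at the control level, 18 away, 20 rose and 19 fell in the same direction and 17 were additive. A 1.2-fold margin left 24 additive genes, and a 2-fold minimum left 97 combined rises and 62 falls. Same replicate numbers did not pair the samples, since deviations correlated at −0.42 to 0.36 and 4 of 18 pairs exceeded 0.1. A replicate block gave 43 erastin falls, 23 same-direction rises, 19 falls, 29 additive genes and 36 genes at the control level, all among the 54. The causes of these differences were not tested. Leaving out each array in turn gave 85 to 140 erastin rises, 38 to 155 falls, 0 to 1 interaction calls, 33 to 74 genes at the control level, 19 to 47 away, 16 to 38 same-direction rises, 16 to 56 falls and 20 to 62 additive genes, where most of the highest counts came without siNT_erastin replicate 3. The combined counts of 1534 to 2063 rises and 1397 to 1881 falls, and the ATF4 list's 26 to 31 opposed and 14 to 18 control-level members, stayed within 1.5 times.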

Other observations

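Outside the ATF4 and synthetase lists lay 57 of the 89 opposed genes and 35 of the 54 at the control level. Of 52 further probe sets that were not dim, for 34 opposed genes, 44 had both mean effects in the same directions as the brightest probe set. For the same-direction genes it was 27 of 31, for 19 genes. Neuron markers gave 1 rise and 1 fall of 8, NEFL at 0.44 and NEFM at −0.52, both neurofilament subunits, and 0 of 5 erythroid and 0 of 7 endothelial markers were called. Of 9 renal markers 5 rose (55.6%) and 2 fell (22.2%), against 15.8% and 14.4% of all genes, so calls went both ways. The cadherin genes CDH6 at 0.69 and CDH16 at 0.65 were among the rises.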
